A study of Mus musculus with 96 samples.

Results

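The mucus layer of the gut is made by goblet cells, and 7 genes for proteins that these cells secrete or need for secretion were followed through 96 libraries: Muc2, Fcgbp, Tff3, Agr2, Zg16, Spink4 and Retnlb. They were taken by symbol from a count table of 41575 gene symbols, in which all 7 had a row. The libraries came from 16 tissues of mice 3 weeks of age that were either wild type (WT) or carried the Scx-/- genotype, a loss of Scleraxis, a transcription factor of tendon and ligament cells. Each tissue and genotype had 3 replicates. Whole organs were frozen and their RNA was barcoded in a multiplexed protocol (MuSeq) that enriches the 3' ends of transcripts. Neither the sex of the mice, nor the libraries that shared a mouse, nor the deleted part of Scx is stated in the sources used here. All p-values therefore measure the spread between these libraries, which may be technical.

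Goblet cells package the gel-forming mucin MUC2 and release it as the gel that separates bacteria from the epithelium. Fcgbp codes for a large mucus protein that is found bound to this gel, and Tff3 for a small trefoil peptide that is secreted with it. Agr2 codes for a protein disulfide isomerase of the endoplasmic reticulum that is needed for mucin folding, and in the stomach it is also made by mucous cells. Zg16 codes for a lectin of the colonic mucus that was first found in the zymogen granules of the pancreas. Spink4 codes for a Kazal-type protease inhibitor of goblet cells and Retnlb for RELM-beta, an antibacterial protein of the lower bowel that type 2 cytokines induce.

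The members lie on 5 chromosomes in GRCm38, and none overlaps another member. Muc2 spans chr7:141690340-141754693 on the plus strand, Fcgbp chr7:28071236-28120862 on the plus strand and Zg16 chr7:127050156-127087328 on the minus strand. Agr2 lies at chr12:35992907-36004087 and Spink4 at chr4:40920052-40931395, both on the plus strand. Retnlb lies at chr16:48816856-48818892 on the plus strand and Tff3 at chr17:31125306-31129646 on the minus strand. The annotation marks the Muc2 locus as fragmented. The span of Zg16 also holds the noncoding genes Gm44939 and Gm22747 on the other strand, and the strand setting of the counting is not given in the sources used here.

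RefSeq promoter windows of GRCm38.p6 matched 3 of the 7 members, Muc2, Fcgbp and Agr2. Each window holds 250 bases before and 50 bases after the annotated start, 5' to 3' on the plus strand, and these 3 are shown as the matched members, which are the gel-forming mucin, a protein bound to it and a gene of its folding. Capitals mark the motifs searched on both strands, which were the TATA box core TATAA and the GATA factor core GATAA, together with the E-box core CAGCTG and with CATAAA, letters found in motifs of CDX factors.
Muc2, chr7:141690090-141690389: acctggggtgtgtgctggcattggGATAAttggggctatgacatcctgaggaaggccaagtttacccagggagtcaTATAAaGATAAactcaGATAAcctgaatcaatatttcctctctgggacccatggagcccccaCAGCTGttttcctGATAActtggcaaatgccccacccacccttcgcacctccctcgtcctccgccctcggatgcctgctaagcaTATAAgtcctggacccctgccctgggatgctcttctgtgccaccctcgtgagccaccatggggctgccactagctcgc
Fcgbp, chr7:28070986-28071285: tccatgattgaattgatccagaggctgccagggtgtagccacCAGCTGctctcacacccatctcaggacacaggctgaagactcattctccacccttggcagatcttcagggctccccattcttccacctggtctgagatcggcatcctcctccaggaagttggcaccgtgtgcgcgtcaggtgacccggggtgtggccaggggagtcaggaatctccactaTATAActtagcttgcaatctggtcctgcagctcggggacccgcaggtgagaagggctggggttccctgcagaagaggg
Agr2, chr12:35992675-35992974: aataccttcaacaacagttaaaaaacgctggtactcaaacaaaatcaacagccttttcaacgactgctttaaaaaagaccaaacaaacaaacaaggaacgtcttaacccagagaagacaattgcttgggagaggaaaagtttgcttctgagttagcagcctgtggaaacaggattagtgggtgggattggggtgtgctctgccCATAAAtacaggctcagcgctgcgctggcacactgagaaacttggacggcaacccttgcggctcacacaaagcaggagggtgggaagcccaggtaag
TATAA began 28 bases before the start in both Muc2 and Fcgbp, and Muc2 held a second copy 174 bases before it. Agr2 held no TATAA in this window and a single CATAAA that began 47 bases before the start. GATAA occurred at 4 places in the Muc2 window, and CAGCTG once each in Muc2 and Fcgbp. Among all 32851 promoter windows, 24.9% held TATAA, 25.4% GATAA, 11.9% CATAAA and 16.3% CAGCTG on either strand. The matches describe letters and are not evidence of binding.

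Total counts ranged from 11244 to 1658192 per library (median 251640), and 16 libraries had fewer than 100000. The 3 intestine Scx-/- libraries were among the smallest, with 26500 to 54955 counts, so that 3 counts there correspond to 54.6 to 113 CPM (counts scaled to a common library total). Counts were found for the targeted gene Scx in 12 of 48 WT libraries and in 1 of 48 Scx-/- libraries, a cartilage library with 9 counts. In intestine, rectum and stomach Scx had counts in 1 library, WT stomach replicate 3 with 9.9 CPM, so the genotype of the gut libraries could not be checked by it. Labels were checked against marker genes. Apoa4, an enterocyte apolipoprotein, was at 9988 to 57873 CPM in intestine and at most 268 CPM elsewhere, and Atp4a, the gastric proton pump, was at 7419 to 10260 CPM in stomach and at most 127 CPM elsewhere. The rectum marker Car1 was less distinct, at 76.2 to 2273 CPM in rectum and up to 952 CPM elsewhere. The adipose label was not borne out by its markers: Adipoq did not exceed 9.95 CPM, Plin1 6.83 CPM and Fabp4 124 CPM in these 6 libraries, while 12 pancreatic acinar genes together took 41.7% to 54.6% of their counts. They are called adipose-labelled libraries here.

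Muc2, the gel-forming mucin itself, was nearly absent from the table. It had 3 counts in all 96 libraries, all in WT rectum replicate 1, where they correspond to 13.8 CPM. No Muc2 count was found in intestine, where a floor of 3 counts over the group corresponds to 4.93 CPM in WT and 26.9 CPM in Scx-/- libraries. The other goblet cell genes were abundant in the same libraries, as described next. Whether the fragmented locus or the counting bears on the Muc2 value was not tested. Muc2 is included in the numbers of tests given below, where it was not called. Its level is not read as a difference between groups, since it rests on 3 counts in 1 library.

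Fcgbp, Tff3, Spink4 and Retnlb were found almost entirely in the gut. Intestine and rectum together held 94.9% of all Fcgbp counts, 95.4% of Tff3, 79.9% of Spink4 and 99.5% of Retnlb counts. With stomach added the shares were 97.9% for Fcgbp, 95.9% for Tff3 and 98.3% for Spink4. Agr2 had 31.2% of its counts in intestine and rectum and 97.5% once stomach was added. Zg16 differed from the rest, with 13.7% of its counts in intestine and rectum and 80.4% in the adipose-labelled libraries. These shares weigh deep libraries more, and the plot of CPM by tissue gives each library on its own scale.

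**Figure D1:**
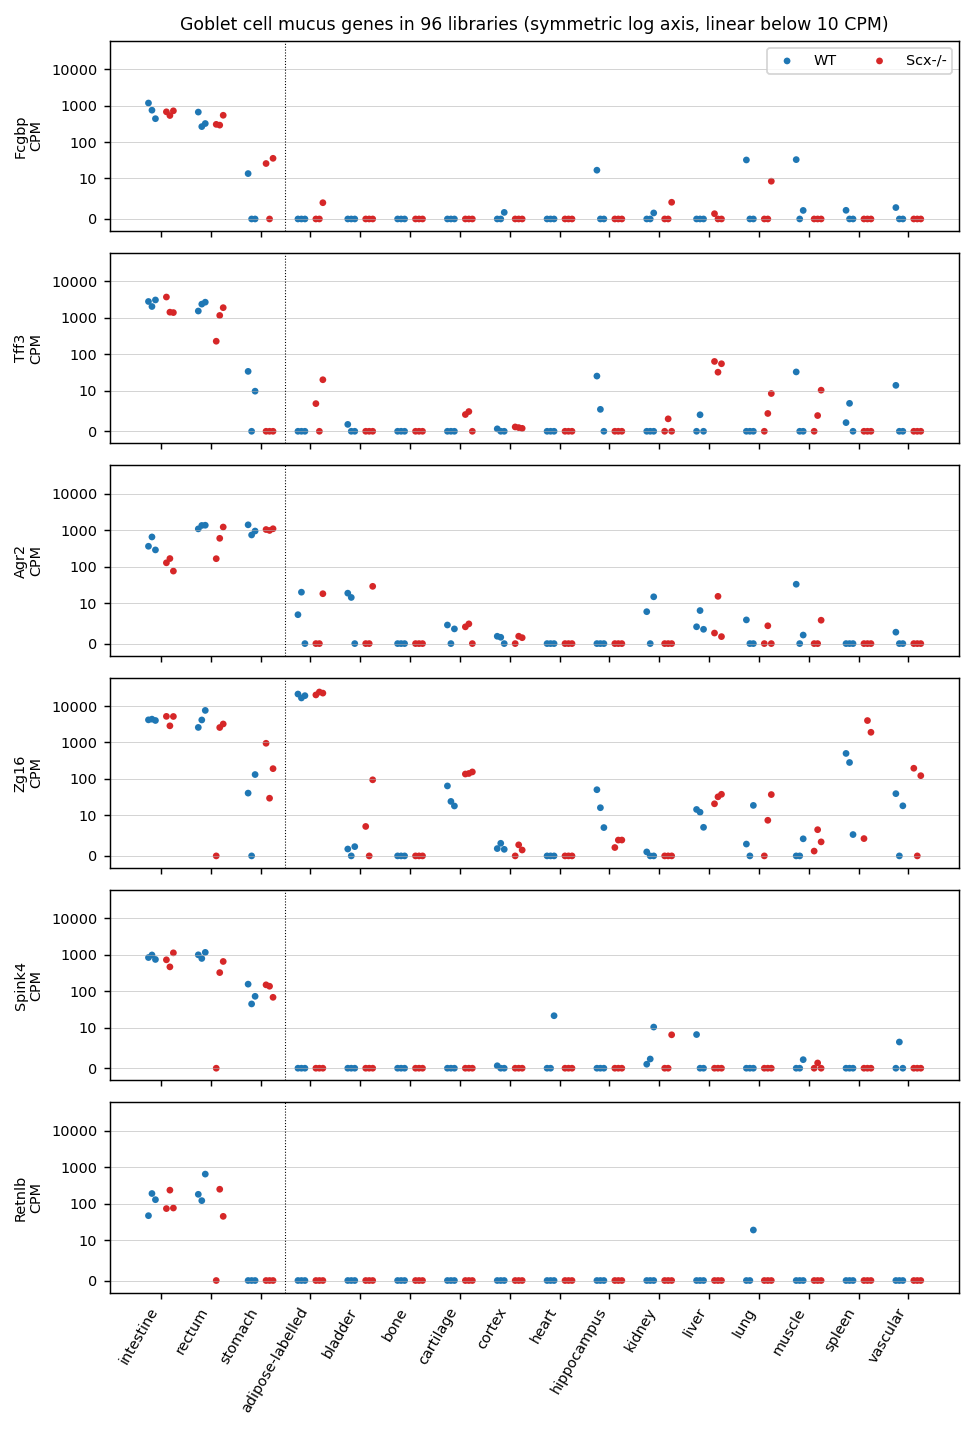
CPM of 6 members in each of the 96 libraries, by tissue (horizontal axis) on a symmetric log vertical axis that is linear below 10 CPM, with WT in blue and Scx-/- in red. Fcgbp, Tff3, Spink4 and Retnlb sit high in intestine and rectum, Agr2 also in stomach, and Zg16 is highest in the adipose-labelled libraries, at 16642 to 24267 CPM.

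Tff3 had its highest mean in intestine, 2420 ± 948 CPM (SD, n = 6 libraries), followed by rectum with 1652 ± 889 CPM. In intestine the WT libraries had 2815, 2049 and 3098 CPM and the Scx-/- libraries 3730, 1433 and 1396 CPM. In rectum the WT libraries had 1540, 2381 and 2693 CPM and the Scx-/- libraries 229, 1166 and 1904 CPM. The ranges of intestine and rectum overlapped. Both lay wholly above liver, the next tissue, whose highest library had 63.8 CPM.

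Fcgbp was at 713 ± 254 CPM in intestine and at 397 ± 164 CPM in rectum (SD, n = 6 each). Its intestine values were 1173, 746 and 437 CPM in WT and 673, 533 and 717 CPM in Scx-/- libraries. Its rectum values were 662, 265 and 322 CPM in WT and 305, 290 and 541 CPM in Scx-/- libraries. These ranges overlapped, and each library in them was above the highest stomach library, 35.7 CPM. Outside the 3 gut tissues 12 libraries had an Fcgbp count and none exceeded 32.9 CPM, with WT lung replicate 1 at 32.2 CPM from 11 counts.

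Spink4 was at 817 ± 230 CPM in intestine, 656 ± 433 CPM in rectum and 105 ± 48.5 CPM in stomach (SD, n = 6 each). The WT values were 840, 989 and 745 CPM in intestine, 998, 794 and 1166 CPM in rectum, and 157, 44.9 and 72.6 CPM in stomach. The Scx-/- values were 728, 466 and 1132 CPM in intestine, 0, 325 and 656 CPM in rectum, and 150, 137 and 68.2 CPM in stomach. Stomach lay wholly below intestine, and in all 6 stomach libraries Spink4 was higher than in any library of the 13 other tissues, of which the highest had 21.3 CPM.

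Retnlb had few counts, 67 in intestine and 152 in rectum, against 1 in all other tissues. In intestine it was at 46.5, 188 and 128 CPM in WT and at 72.8, 233 and 75.5 CPM in Scx-/- libraries, the last 3 values resting on 4, 7 and 2 counts. In rectum it was at 179, 120 and 643 CPM in WT and at 0, 247 and 44.6 CPM in Scx-/- libraries. The ranges of both tissues overlapped. Stomach had no Retnlb count in 2457754 counts.

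Agr2 had a different order, with stomach at 1034 ± 218 CPM, rectum at 964 ± 482 CPM and intestine at 278 ± 211 CPM (SD, n = 6 each). The stomach libraries had 1403, 739 and 947 CPM in WT and 1041, 982 and 1094 CPM in Scx-/- mice. The rectum libraries had 1085, 1347 and 1366 CPM in WT and 165, 598 and 1220 CPM in Scx-/- mice. The intestine libraries had 362, 652 and 287 CPM in WT and 127, 167 and 75.5 CPM in Scx-/- mice. Stomach did not overlap intestine. In rectum the 3 WT libraries and Scx-/- replicate 3 lay within the stomach range, and Scx-/- replicates 1 and 2 lay within the intestine range. No library of the 13 other tissues exceeded 32.9 CPM.

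**Figure D2:**
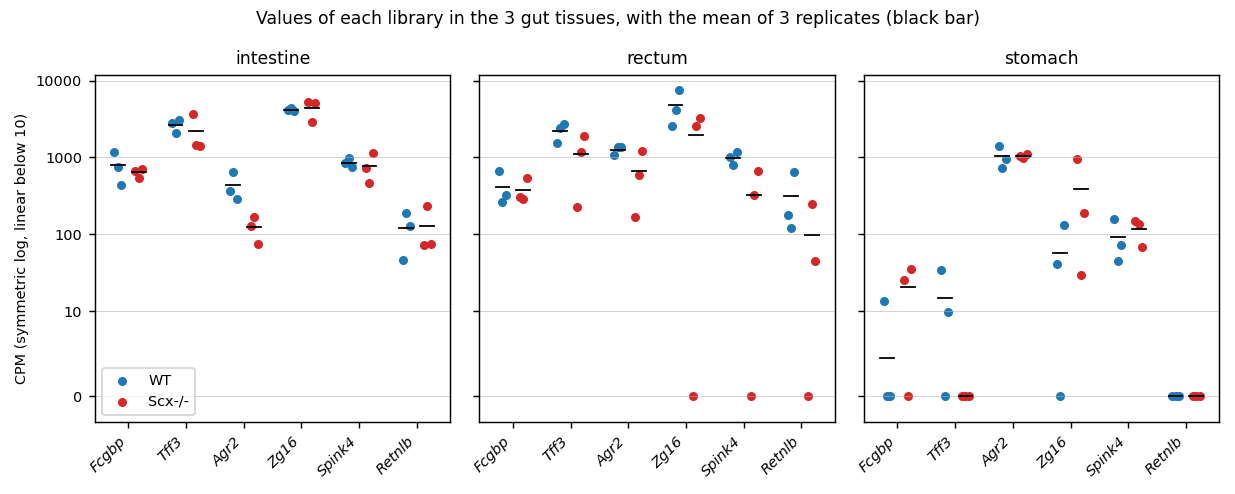
CPM of 6 members in each library of intestine, rectum and stomach (symmetric log axis, linear below 10 CPM), WT in blue and Scx-/- in red, with the mean of 3 replicates as a black bar. In stomach Agr2 is at 739 to 1403 CPM and Spink4 at 44.9 to 157 CPM while Retnlb is at 0 in all 6 libraries, and in rectum 1 Scx-/- library is at 0 for Zg16, Spink4 and Retnlb.

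The 7 members together took 0.865% ± 0.161 of the counts in intestine, 0.723% ± 0.431 in rectum and 0.138% ± 0.048 in stomach (SD, n = 6 each). Without Zg16 the share was 0.283% to 0.533% in intestine, 0.0699% to 0.619% in rectum and 0.0784% to 0.161% in stomach. In the adipose-labelled libraries the sum was 2.07% ± 0.267, of which all members but Zg16 made up at most 0.00422%. With TMM library sizes the mean share was 0.572% in intestine and 4.68% in the adipose-labelled libraries. Spleen followed with 0.112% ± 0.158, again from Zg16.

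The question of how the members differ along the gut was put to edgeR's quasi-likelihood test, with both genotypes in the model and p-values adjusted over all genes tested (Benjamini-Hochberg, threshold 0.05). Between stomach and intestine 5 of the 6 members tested changed, 1 higher and 4 lower in stomach. Of all 15710 genes tested, 4.61% were called higher and 2.42% lower in stomach. Scaling moved this balance: 725 genes were called higher and 380 lower with TMM factors, 551 and 434 with RLE factors, and 330 and 559 with library totals. The median log2 fold change of all genes was 1.27 with TMM factors, and it shifted by -0.10 with RLE factors and by -0.39 with library totals. Genes with few counts weigh in this median, since only genes at 0 in all libraries were removed. Stomach held 2457754 counts and intestine 719642, and the part of this depth difference in the median was not tested.

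Agr2 was higher in stomach by 2.85 ± 0.46 (log2 fold change ± SE, adjusted p = 4.34e-08). It was called in all 20 alternatives, with values from 1.68 to 4.02. Fcgbp fell by 5.37 ± 0.64 on the log2 scale (adjusted p = 1.5e-14), from 920 to 14.2 CPM over pooled counts. Its stomach value rests on 35 counts in 3 libraries, and leaving out 1 library moved the log2 difference between -7.16, without stomach WT replicate 1, and -5.07. Spink4 fell by 2.24 ± 0.51 (adjusted p = 0.000444), and with Scx-/- libraries alone its fall of 1.70 was not called (adjusted p = 0.261). Both genes kept their direction in every alternative.

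Tff3, the trefoil peptide of the lower gut, was nearly missing in stomach. It had 34.0, 0 and 9.9 CPM in WT stomach and no count in Scx-/- stomach. Over pooled counts it was 365-fold higher in intestine, with a 95% exact interval for counting error of 231 to 618 (fitted log2 fold change -9.18 ± 0.61, adjusted p = 1.63e-47). Of the 18 stomach counts 15 came from WT replicate 1, and without it the ratio was 1800 (615 to 8734), with 3 stomach counts left. It was 162 in WT libraries (102 to 273) and at least 1176 in Scx-/- libraries, against a floor of 3 counts over the group. Retnlb, at 0 in stomach, was at least 76.3-fold higher in intestine and at least 128-fold higher in rectum, against a floor of 3 counts over the 6 stomach libraries (adjusted p = 9.73e-06 against intestine). This call was lost when all libraries were thinned to the same depth (adjusted p = 0.0853).

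Zg16 was lower in stomach by 4.12 ± 1.08 on the log2 scale but missed the threshold (adjusted p = 0.0638). It passed in 10 of 20 alternatives, such as DESeq2 (adjusted p = 1.91e-08), and adjusted p over the alternatives ran from 5.86e-24 to 0.290. Its stomach values were 40.9, 0 and 132 CPM in WT and 951, 29.6 and 192 CPM in Scx-/- libraries. The highest of them, Scx-/- replicate 1, also had the highest sum of acinar genes in stomach, 25005 CPM. Without this library the difference was -5.09 (adjusted p = 5.22e-14).

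Between rectum and intestine Agr2 was the single member called of 7 tested, higher in rectum by 2.15 ± 0.60 (log2 fold change ± SE, adjusted p = 0.0146), and 1.49% of all genes tested were called higher and 1.48% lower. The call was lost without intestine WT replicate 1 (adjusted p = 0.0570), without intestine WT replicate 3 (adjusted p = 0.0759) and without rectum Scx-/- replicate 3 (adjusted p = 0.171). It was 1.26 in WT libraries alone (adjusted p = 0.439) and 3.05 in Scx-/- libraries alone (adjusted p = 0.219).

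The intervals of the other members were wide. The log2 difference between rectum and intestine was -0.68 for Fcgbp (95% interval from the SE, -1.81 to 0.46) and -0.52 for Tff3 (-1.37 to 0.33). It was -0.36 for Zg16 (-1.53 to 0.82), -0.31 for Spink4 (-1.38 to 0.75) and 0.71 for Retnlb (-0.97 to 2.40). None of these 5 genes passed the threshold. Leaving out 1 library moved Fcgbp between -1.04 and -0.37, Tff3 between -0.86 and -0.02, Spink4 between -0.80 and -0.03 and Zg16 between -0.65 and -0.07. Retnlb ranged from -0.26, without rectum Scx-/- replicate 2, to 1.03. Whether the difference between rectum and intestine depended on genotype was tested by an interaction term. No member was called, against 0.0258% of all genes, and for Agr2 the difference of differences was 1.77 ± 1.16 (adjusted p = 0.699). For the other members with a usable error the term lay between -0.70 and 1.01.

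**Figure D3:**
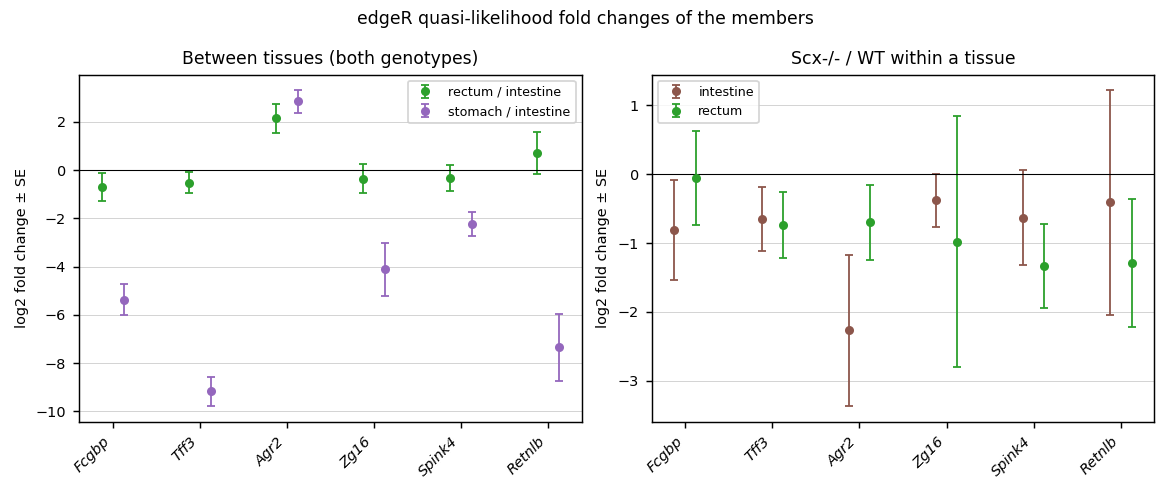
Log2 fold changes with SE from edgeR for 6 members, left for rectum and stomach against intestine over both genotypes and right for Scx-/- against WT in intestine and in rectum. Agr2 is above 0 and Fcgbp, Tff3, Spink4, Zg16 and Retnlb are below 0 in stomach against intestine, where the fitted values of Tff3 and Retnlb depend on libraries at 0.

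Genes around the members were read from lists. Of 11 goblet cell transcription factors tested between stomach and intestine, 3 were higher and 2 lower in stomach, with a median log2 fold change of -1.15 against 1.27 for all genes. Foxa3, a forkhead factor of goblet cells, was higher by 3.51 ± 0.83 (adjusted p = 0.000917) and Creb3l1, a factor of the secretory pathway, by 4.82 ± 1.24 (adjusted p = 0.00314). Each was called in 18 of 20 alternatives, Foxa3 with values from 2.94 to 6.16 (adjusted p up to 0.193) and Creb3l1 from 1.11 to 8.48 (adjusted p up to 0.605). With RLE factors and with library totals 2 factors were higher and 2 lower. Cdx1 and Cdx2, which set intestinal identity, were lower. Cdx1 had 1 count in stomach and 81 in intestine and was called in 18 of 20 alternatives, losing its call after thinning and without intestine Scx-/- replicate 1. Cdx2 had 0 and 62 counts and was called in 11 of 20 alternatives. Its call was lost when any 1 stomach library was left out, and without intestine Scx-/- replicate 1. Between rectum and intestine 1 of 11 factors was called, Creb3l1, higher in rectum by 4.73 ± 1.34 (adjusted p = 0.0175). It was called in 12 of 20 alternatives, with values from 1.69 to 7.67 and adjusted p up to 0.561, and was lost without rectum WT replicate 1, rectum Scx-/- replicate 2 or 3, or intestine WT replicate 1 or 2. The median of that list was 1.36, or 1.07 with genes at 0 on one side set to their bound, beside 0.97 for all genes.

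Of 24 genes of mucin O-glycosylation and secretion tested, 6 were higher and 4 lower in stomach than in intestine (median 1.43). Ern2, a sensor of the unfolded protein response in mucous cells, was higher by 5.44 ± 1.33 (adjusted p = 0.0015), and Fut2, a fucosyltransferase of mucins, by 7.20 ± 1.31 (adjusted p = 2.88e-06). Over the alternatives Ern2 ran from 2.70 to 8.14 (adjusted p up to 0.435, called in 18 of 20) and Fut2 from 4.79 to 8.10 (adjusted p up to 0.117, called in 19). Mep1b, the meprin that cleaves MUC2, was lower by a log2 fold change of -8.05 ± 0.80. In rectum against intestine 2 genes of this list were higher and 2 lower (median 0.62). Tgm3, a transglutaminase, had 629 counts in rectum and 0 in intestine, and Fut2 had 114 and 1, the latter gene called in 12 of 20 alternatives, with adjusted p up to 0.379. Its call was lost without rectum WT replicate 1, rectum Scx-/- replicate 2 or 3, or intestine WT replicate 2 or 3. Mep1b and the sialyltransferase St3gal4 were lower in rectum, with -4.87 ± 0.79 and -3.03 ± 0.81, the first called in all 20 alternatives and the second in 15. Without intestine Scx-/- replicate 2 the St3gal4 difference turned to 0.54 and was not called, and its call was also lost without rectum WT replicate 2, rectum Scx-/- replicate 3 or intestine WT replicate 1.

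Among other goblet-associated genes, 6 of 17 were higher and 3 lower in stomach than in intestine (median -0.65). With RLE factors these counts were 3 and 4, and with library totals 3 and 5. In rectum, 3 of 19 were higher than in intestine (median 1.11). The 3 were Pla2g10, a secreted phospholipase, Best2, an anion channel of colonic goblet cells, and Smim6. Pla2g10 had 203 counts and Best2 79 counts in rectum against 0 each in intestine, and Best2 was called in 6 of 19 alternatives, with adjusted p up to 0.561. Its call was lost when any 1 intestine library was left out, and without rectum WT replicate 1 or Scx-/- replicate 2 or 3. Smim6 was called in 15 of 20 alternatives, with values from 2.81 to 7.53 and adjusted p up to 0.561, and its call was lost without rectum WT replicate 1 or Scx-/- replicate 3. Reg4 and Guca2a had 188 and 211 counts in intestine and 0 in stomach.

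Of the mucins other than Muc2, several had few counts in the lower gut. Of 9 tested between stomach and intestine, 3 were higher and 2 lower in stomach (median 2.98, or 0.87 with genes at 0 on one side set to their bound). Muc5ac, the gel-forming mucin of gastric surface cells, was at 1151 ± 470 CPM in stomach and 6.07 ± 14.9 CPM in intestine. The transmembrane mucins Muc13 and Muc3 went the other way. Muc13 was at 2117 ± 787 CPM in intestine and 3.97 ± 5.96 CPM in stomach, and Muc3 at 855 ± 557 and 5.88 ± 8.11 CPM (SD, n = 6 each). In rectum against intestine none of 7 mucins was called, with Muc13 at -0.70 ± 0.45 (adjusted p = 0.489) and Muc3 at 0.84 ± 0.50 (adjusted p = 0.433).

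Paralogues of the members were also spread unevenly. Of 12 tested, 6 were higher and 1 lower in stomach than in intestine (median 5.08, or 2.89 with bounds). Tff1, the trefoil peptide of gastric mucus, was at 60252 ± 10874 CPM in stomach and 572 ± 935 CPM in intestine, opposite to Tff3. Spink1, the pancreatic and intestinal relative of Spink4, was at 1873 ± 596 CPM in intestine and 29.5 ± 50.9 CPM in stomach. Retnla, a relative of Retnlb, was higher in rectum than in intestine, with 109 counts against 1. It was called in 17 of 20 alternatives, and the call was lost after thinning and in either genotype alone (adjusted p up to 0.389). Of 6 genes of the type 2 cytokine axis and tuft cells tested in each contrast, none was called.

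Cell type lists in the same contrasts were as follows. All 11 small intestinal enterocyte genes were lower in stomach and 10 of 11 were lower in rectum than in intestine. Of 10 Paneth cell genes tested, 8 were lower in stomach and 4 in rectum, or 6 in rectum with the other scalings. All 11 gastric epithelium genes and all 9 squamous epithelium genes were higher in stomach, and 6 of 8 smooth muscle genes were higher in stomach and in rectum, or 4 in stomach with the other scalings. Of 10 general intestinal epithelium genes tested, 2 were higher and 6 lower in stomach, and 2 were higher and 2 lower in rectum. Of 10 pancreatic acinar genes tested 8 were lower in rectum than in intestine and none was called in stomach. Of 9 squamous genes 3 were higher in rectum, and of 9 colonocyte genes 3 were higher in rectum and 3 lower in stomach. The squamous calls in rectum rest on the Scx-/- libraries, where the list summed to 8547 to 15919 CPM. In WT libraries its sum was at most 40.2 CPM in rectum and at most 33.6 CPM in intestine. In these bulk samples fewer cells of a type and less RNA per cell cannot be told apart.

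The design also asks whether loss of Scx changed these genes within each tissue. Of 65 tests of a member in a tissue, none passed an adjusted p of 0.05 with edgeR, against 0.0914% of all genes over the 16 tissues, and 7 had an unadjusted p under 0.05, against 4.01% of all genes. The study used an unadjusted p under 0.05 with a log2 fold change over 1 in size, and 6 of the 65 tests passed this, against 3.71% of all genes. They were Agr2 in intestine, Spink4 in rectum, Tff3 in liver and in stomach, and Zg16 in cartilage and in bladder. The edgeR test between genotypes had little power. In counts simulated at the depth and spread of these libraries it called 17 of 100 genes changed 16-fold in rectum and 0 of 100 in intestine. A lack of calls is thus not evidence of no change.

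In intestine Agr2 was lower in each Scx-/- library than in any WT library. The means were 434 ± 192 CPM in WT and 123 ± 45.7 CPM in Scx-/- (SD, n = 3 each), and the 3 Scx-/- values rest on 7, 5 and 2 counts. The log2 fold change was -2.27 ± 1.10 (adjusted p = 0.652), and it was -1.80 to -2.55 in the alternatives. By the study's thresholds 4.25% of genes were called in this tissue, and by adjusted p 0%. The other members had log2 fold changes of -0.81 for Fcgbp, -0.65 for Tff3, -0.63 for Spink4, -0.41 for Retnlb and -0.38 for Zg16, with adjusted p of 0.652 to 0.910. The median of all genes was -1.63, and it shifted by 0.37 with RLE factors and by 0.42 with library totals. Zg16 changed sign with it, to 0.01 and 0.08. The WT group held 608173 counts and the Scx-/- group 111469, and the part of depth in the median of all genes was not tested. Leaving out 1 library moved Fcgbp between -1.15 and -0.30, Tff3 between -1.60 and -0.36 and Retnlb between -1.06 and 0.13, the last without WT replicate 2. Gastric epithelium genes also differed among these libraries, with sums of 310, 1994 and 532 CPM in WT and 6696, 200 and 5321 CPM in Scx-/- intestine. None of the 10 tested was called, their median log2 fold change was 1.99, and their part in the Agr2 values was not tested.

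In rectum the WT libraries were higher on average for each of these members, and no member passed an adjusted p of 0.05, against 0.441% of all genes. Spink4, at 986 ± 186 CPM in WT and 327 ± 328 CPM in Scx-/- libraries (SD, n = 3 each), had no overlap between genotypes and a log2 fold change of -1.33 ± 0.61 (adjusted p = 0.706). The study's thresholds called 5% of genes here. The log2 fold change was -1.29 ± 0.93 for Retnlb, -0.98 ± 1.82 for Zg16, -0.74 ± 0.48 for Tff3, -0.70 ± 0.54 for Agr2 and -0.05 ± 0.68 for Fcgbp. Leaving out 1 library moved Spink4 between -2.29 and -0.76, Retnlb between -3.18 and -0.49 and Zg16 between -1.55 and -0.40. Tff3 moved between -1.42 and -0.25, Agr2 between -1.53 and -0.23, and Fcgbp between -0.50 and 0.67, with a change of sign.

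The first rectum Scx-/- library stood apart from the others. It had no count for Zg16, Spink4 and Retnlb, where its floor of 3 counts corresponds to 38.1 CPM, while Fcgbp was at 305 CPM. The sum of 11 intestinal epithelium genes was 2770 CPM in it and 10928 to 18527 CPM in the other 5 rectum libraries. The sum of 8 smooth muscle genes was 1575 CPM against 15422 to 23043 CPM. Without this library the log2 fold changes were -0.76 for Spink4, -0.75 for Retnlb, -0.40 for Zg16, -0.25 for Tff3 and -0.23 for Agr2, with adjusted p of 0.877 to 0.938.

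All 3 rectum Scx-/- libraries differed from WT in squamous epithelium genes, the keratins and cornified proteins of skin and anal canal. Their sum was 15919, 11565 and 8547 CPM in Scx-/- and at most 40.2 CPM in WT libraries, and all 9 genes of the list were called higher. Krt5 had 732 counts and Krt14 657 counts in Scx-/- libraries and 0 in WT. The part of these tissue differences in the member values was not tested. Per count of the 11 intestinal epithelium genes the members had 0.505, 0.581 and 0.743 counts in WT rectum, and 0.252, 0.476 and 0.576 counts in Scx-/- rectum. On this scale Scx-/- replicate 3 lay within the WT range and replicates 1 and 2 below it.

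Beside the members, 1 of 19 other goblet-associated genes was called in rectum between genotypes. Clca1, a secreted metalloprotease of the goblet cell mucus, was at 3072 ± 896 CPM in WT and 647 ± 497 CPM in Scx-/- rectum (SD, n = 3 each). It fell by 1.97 ± 0.49 on the log2 scale (adjusted p = 0.0138). It was called in 5 of 12 alternatives, with adjusted p from 0.000412 to 0.291, and without rectum Scx-/- replicate 1 it was -1.45 (adjusted p = 0.0132). That was the lowest adjusted p of the fits that left out 1 library. In these fits Clca1 ran from -2.45 to -1.45, with adjusted p up to 0.291. Car4, a carbonic anhydrase and the only 1 of 9 colonocyte genes called, fell by 4.18 ± 0.93 (adjusted p = 0.00281). It was called in 9 of 12 alternatives, with log2 fold changes from -5.91 to -3.49 and adjusted p up to 0.277. Of 9 transcription factors, 24 glycosylation and secretion genes and 7 mucins tested in rectum none was called. Of 10 paralogues Spink5, a relative of Spink4, was called higher in Scx-/- rectum by 4.28 ± 0.97 (adjusted p = 0.00343), with 307 counts against 6. Its WT libraries had a median of 0 and a maximum of 120.6 CPM. Spink5 was called in 8 of 12 alternatives, with values from 3.48 to 9.46 and adjusted p up to 0.717. The call was lost without WT replicate 1 or 2 or Scx-/- replicate 2. Squamous genes were higher in the same Scx-/- libraries, and their part in the Spink5 difference was not tested. Of 4 airway secretory genes Cyp2f2, a cytochrome P450 of club cells, was called higher, with 119 counts against 1 (6.85 ± 1.32, adjusted p = 0.00012). It was at 1258, 43.3 and 31.8 CPM in the Scx-/- libraries, and without replicate 1 the difference was 3.79 and not called (adjusted p = 0.877).

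**Figure D4:**
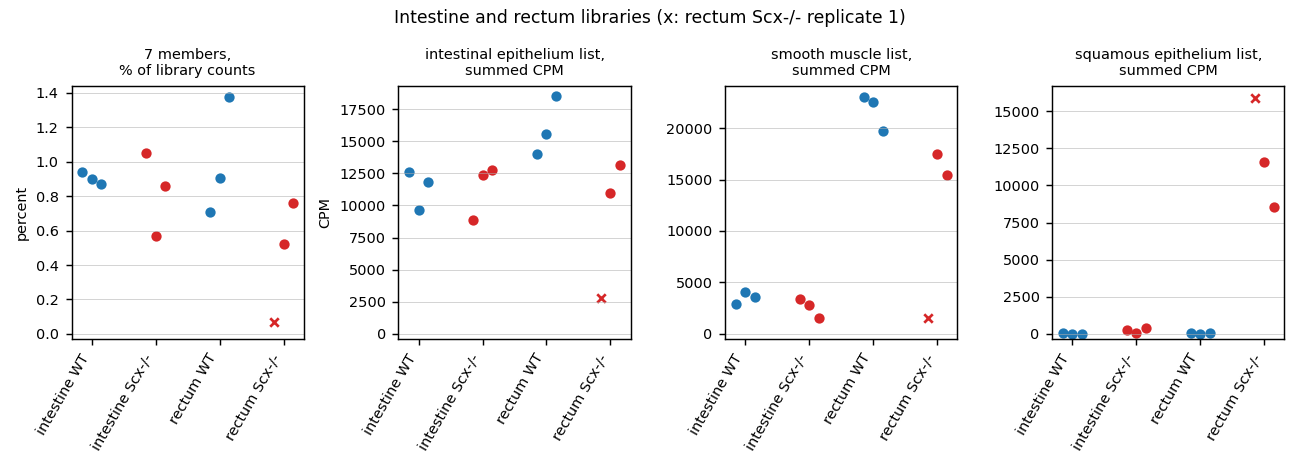
Each intestine and rectum library by genotype, from left the share of counts of the 7 members in percent and the summed CPM of the intestinal epithelium, smooth muscle and squamous epithelium lists, WT in blue, Scx-/- in red and rectum Scx-/- replicate 1 as a cross. The cross is lowest among the rectum libraries for members, epithelium and muscle and highest for squamous genes, at 15919 CPM, and the other 2 rectum Scx-/- libraries are also high for squamous genes.

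In stomach Agr2 did not differ beyond its error, with a log2 fold change of 0.00 ± 0.24 between genotypes (95% interval -0.47 to 0.47). Spink4 was at 0.38 ± 0.55. Zg16 had a log2 fold change of 2.90 ± 1.94 (adjusted p = 0.813), and without Scx-/- replicate 1 it was 0.86 (adjusted p = 0.885). Of 12 alternatives only the replicate block called it (edgeR adjusted p = 0.000858). The acinar sum moved with Zg16, at 579, 356 and 785 CPM in WT and 25005, 971 and 6492 CPM in Scx-/- stomach, and its part was not tested. Tff3 met the study's thresholds there (3.31% of genes did) through 18 counts in 2 WT libraries against 0 in the Scx-/- group, whose floor of 3 counts corresponds to 2.17 CPM. The adjusted p was 0.797.

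Tff3 in liver was the member difference closest to the adjusted threshold. The WT livers had 0, 4.08 and 0 CPM, from 1 count in all, and the Scx-/- livers had 63.8, 32.3 and 55.2 CPM, from 49, 19 and 32 counts. Each Scx-/- library was higher than each WT library. Over pooled counts the ratio was 52.2, with an exact 95% interval for counting error of 9.15 to 2081. Without WT replicate 2, which held the single WT count, it was at least 13.2-fold against a floor of 3 counts over the group. The log2 fold change was 5.42 ± 1.63 (adjusted p = 0.136), where 0.442% of genes were called by adjusted p and 4.29% by the study's thresholds. DESeq2 gave an adjusted p of 0.0488 and the fit without WT replicate 2 gave 0.0464, and the other 10 alternatives lay above 0.05. Epcam, an epithelial surface protein, was at 0 in all 6 livers, and Krt19, a bile duct keratin, did not exceed 60.2 CPM. Agr2 and Fcgbp in liver did not exceed 15.3 and 1.3 CPM. Zg16 was at 14.5, 12.2 and 7.06 CPM in WT and at 20.8, 32.3 and 37.9 CPM in Scx-/- livers, without overlap, and its log2 fold change was 1.56 ± 1.44 (adjusted p = 0.776). The acinar sum moved with it, from 285 to 477 CPM in WT to 512 to 812 CPM in Scx-/- livers, and its part was not tested.

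Zg16 had a second pattern outside the gut. Its adipose-labelled libraries had 21323, 16642 and 19247 CPM in WT and 20161, 24267 and 22611 CPM in Scx-/- mice, and all 6 were above every intestine library, of which the highest had 5204 CPM. For each 100 counts of the 12 acinar genes, Zg16 had 3.05 to 5.0 counts in these libraries. Spleen had a similar ratio of 2.56 to 4.86 in the 4 libraries with at least 100 acinar counts, and cartilage one of 3.08 to 6.09 in 6 libraries. In stomach the ratio was 0 to 16.8, in liver 1.98 to 6.31 and in 5 vascular libraries 0 to 9.48. It was lower in kidney, at 0 to 0.308 in 3 libraries, while bladder had 0 to 7.77 with a median of 0.527 and 2 muscle libraries had 0 and 2.70. Thus spleen libraries with 501, 283, 3996 and 1905 CPM of Zg16 had 13683, 11049, 82196 and 42411 CPM of acinar genes, and those with 5.27 and 4.27 CPM had 100.1 and 51.3 CPM.

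The median ratio was higher in intestine, at 40.0 in the 4 libraries with at least 100 acinar counts, than in adipose-labelled libraries (4.26), cartilage (4.80), spleen (4.08) and stomach (3.43), and the lowest intestine value lay within the stomach range. In intestine the first WT library had 4177 CPM of Zg16 with 46.5 CPM of acinar genes, and the first Scx-/- library had 5204 CPM with 39814 CPM. The ratio was 13.1 to 122 per 100 acinar counts in these 4 intestine libraries, and 760 in the single such rectum library. In that library all 133 acinar counts came from 1 gene, Cela1, an elastase, so its ratio is not one to acinar genes as a group. Cela1 also held 24 of 24, 9 of 9 and 71 of 80 acinar counts in the WT rectum libraries, and acinar genes summed to at most 368 CPM in rectum outside that library. Leaving acinar counts out of the library total moved the intestine mean from 4299 to 4359 CPM.

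Between genotypes Zg16 in cartilage was at 64.3, 24.2 and 18.1 CPM in WT and at 136, 141 and 156 CPM in Scx-/- libraries, without overlap. The log2 fold change was 2.06 ± 0.96 (adjusted p = 0.769), and 3.17% of genes met the study's thresholds there. Without Scx-/- replicate 1, the library with Scx counts, it was 2.10 (adjusted p = 0.83). The acinar sum moved with it, from 471 to 1056 CPM in WT to 2552 to 3112 CPM in Scx-/- libraries, and its part in the difference was not tested. In bladder Zg16 had 1, 0 and 1 counts in WT and 3, 0 and 23 counts in Scx-/- libraries (log2 fold change 4.29 ± 2.07, adjusted p = 0.804), and 3.76% of genes met the study's thresholds there. The acinar sum was 248 to 576 CPM in WT bladder and 337, 399 and 1218 CPM in Scx-/- bladder. Without Scx-/- replicate 3, which held the 23 counts, the difference was 1.29 (adjusted p = 0.947).

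**Figure D5:**
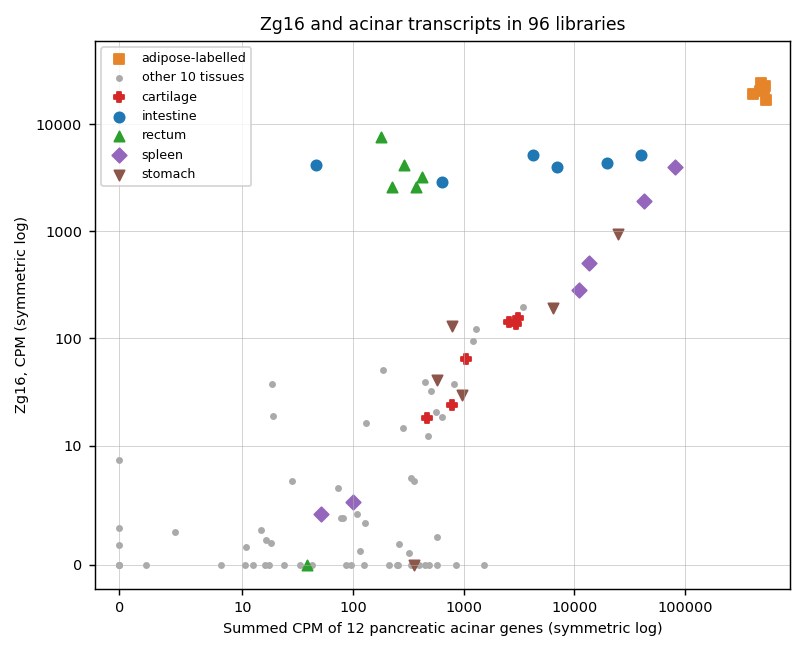
Zg16 CPM (vertical) against the summed CPM of 12 pancreatic acinar genes (horizontal) in 96 libraries, both on symmetric log axes that are linear below 10, with marker and colour by tissue. Spleen, cartilage and adipose-labelled libraries have 2.56 to 6.09 Zg16 counts per 100 acinar counts where acinar counts reach 100, stomach libraries scatter more widely, and 6 intestine and 5 rectum libraries lie at 2574 to 7576 CPM of Zg16.

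Likeness was described by Pearson correlation of log2(CPM + 1) over the 96 libraries, which share depth and tissue composition, so no p is given. Zg16 had 43386 counts in all and Agr2, the next member, 3893, so the summed members mostly follow Zg16. The gene closest to the summed members was Dmbt1, a mucosal scavenger receptor glycoprotein (r = 0.92), at 726 to 2311 CPM in intestine, 25.4 to 2273 CPM in rectum and 2670 to 5713 CPM in the adipose-labelled libraries. Over the 12 intestine and rectum libraries its r was 0.93, and over the 11 without rectum Scx-/- replicate 1 it was 0.46. The next 4 were the pancreatic genes Sycn (0.80), Reg1 (0.79), Pnliprp2 (0.77) and Pnliprp1 (0.73), followed by Tff2, Pla2g1b, Cela3b, Cela1 and Rnase1 (0.68 to 0.71). Taken singly, the closest gene was Tm4sf20 for Fcgbp (r = 0.90) and Tff3 (r = 0.89), Phgr1 for Agr2 (r = 0.86), Dmbt1 for Zg16 (r = 0.88), Eps8l3 for Spink4 (r = 0.96) and Gm5485 for Retnlb (r = 0.93).

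Among the members themselves, the 15 pairs without Muc2 had r of 0.48 to 0.88 over 96 libraries. Over the 12 intestine and rectum libraries the pairs ranged from -0.30 to 0.99, and the highest was Zg16 with Spink4. That pair fell to 0.66 without rectum Scx-/- replicate 1, and the median over pairs fell from 0.40 to 0.074. Fcgbp and Agr2 had r of -0.30 with that library and -0.45 without it. The highest values within the lower gut thus rest on 1 library.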

How the data were processed

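Libraries of 16 tissues, 2 genotypes and 3 replicates were grouped by GEO's labels, and no column was left unmapped. The authors mapped reads to mm10 with Bowtie2 and counted them per gene with HTSeq, and the deposited values are these whole counts, not normalized. The sources used here do not state tool versions, annotation, strand setting or use of molecular identifiers. The paper calls the libraries 3'-enriched, and the record of the series names Smart-seq2.

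CPM used library totals. edgeR 4.0.16 (R 4.3.3, limma 3.58.1) was run with TMM factors, estimateDisp, glmQLFit (robust) and glmQLFTest after removal of genes at 0 in all libraries of a fit. The SE is the log2 fold change over the root of the F statistic. Groups at 0 were read against a floor of 3 counts, and intervals (95%, exact) cover counting error only. Fold changes against groups at 0 depend on the prior count. Alternatives were RLE factors, library totals, filterByExpr, DESeq2 1.42.0 (the authors' tool), a replicate block, thinning, 1 genotype alone and leaving out each library. After seeing the data, the ratio of members to epithelium genes and a total without acinar genes were added. Python 3.11.15 with pandas 2.3.3, numpy 2.4.6, scipy 1.17.1 and matplotlib 3.10.9 was used. Coordinates are from GENCODE M21 (GRCm38) and promoters from RefSeq. The scripts were tested on simulated data.

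The members, gene lists and tests were chosen with earlier results of these data known. Named genes are the members, up to 4 called genes of a list by size of change, or its 2 most abundant genes where none was called, and the closest genes by correlation. Some genes under this rule are left unprinted. Adipoq, Plin1, Fabp4, Apoa4, Atp4a, Epcam and Krt19 as tissue markers were chosen after values were seen. No 2 replicates were alike within sampling noise (lowest chi-square over its degrees of freedom 6.93 in 96 pairs).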

Additional observations from a re-analysis of the deposited data

How the results depend on the processing

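No member was called between genotypes under any alternative in 12 of the 15 tissues where a member could be tested, which leaves out bone. The exceptions were Tff3 in liver, Zg16 in adipose without WT replicate 1 and Zg16 in stomach with the replicate block (log2 fold change 2.89, adjusted p = 0.000858, where acinar genes moved with it), each 1 member called against 0.

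Between rectum and intestine the 1 called member became 0 in WT libraries alone and in Scx-/- libraries alone, and leaving out a library gave 0 to 1. All genes called there numbered 459, and 288 after thinning, 240 in WT and 150 in Scx-/- libraries alone. Between stomach and intestine 1105 became 457, 492 and 348. In rectum 63 genes were called between genotypes, 39 with the replicate block and 37 to 62 without a library (37 without Scx-/- replicate 2, 41 without WT replicate 2). In intestine 0 were called, 1 with DESeq2 and 0 to 2 without a library (1 without Scx-/- replicate 2, 2 without Scx-/- replicate 3), and 513 had an unadjusted p under 0.05. The summed share of members became 0.572% in intestine and 4.68% in adipose-labelled libraries with TMM library sizes. Of the 10 closest genes 5 stayed among the 10 in WT libraries alone.

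Same-numbered WT and Scx-/- libraries of a tissue did not deviate together (r from -0.278 to 0.114 over 48 pairs). In none of 16 tissues were all pairs over 0.1. These pairs join different mice by genotype, so they cannot show whether a number marks a mouse shared between tissues, which was not tested. Low depth limits the intestine Scx-/- values, which rest on 26500 to 54955 counts per library.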

Other observations

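Single libraries outside the gut held a few counts of a member. Spink4 was at 21.3 CPM in 1 WT heart library, from 6 counts, and at 0 in the other 5 hearts. Retnlb had 1 count in 1 WT lung library (18.8 CPM). Hippocampus WT replicate 1 had counts of Fcgbp (16.9 CPM), Tff3 (25.3 CPM) and Zg16 (50.6 CPM), while the 3 Scx-/- hippocampus libraries had no Fcgbp or Tff3 count and 2.07 to 3.92 CPM of Zg16. No bone library had a count of any member.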
